A study of Mus musculus with 8 samples.

Results

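The Fc gamma receptors bind the constant part of IgG, and 6 genes of this system were read from RNA sequencing of early B cells: the inhibitory receptor Fcgr2b, the activating receptors Fcgr3, Fcgr4 and Fcgr1, the signaling chain Fcer1g that the activating receptors share, and Fcgrt, the heavy chain of the neonatal Fc receptor. They were chosen by gene symbol, and each symbol matched 1 of the 52550 genes in every library. Cells labelled pre-pro-B or pro-B had been sorted from bone marrow of wild type (WT) and lactoferrin knockout (Lf-/-) mice of the C57BL/6J strain. The labels name no treatment and no age, and per the study the WT animals were littermates of matched age. The study's flow cytometry defines pro-B cells as B220+CD43+IgM-. Pre-pro-B cells had 2 libraries of each genotype, and pro-B cells had 2 of Lf-/- and 1 of WT, which makes 7; WT pro-B replicate 2 was not analysed here. The question was how the inhibitory receptor that B cells share with myeloid cells stood against the activating, mainly myeloid receptors in the 4 groups.

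IgG immune complexes signal through a balance of receptors. The activating receptors pair with the common gamma chain, whose tail holds an immunoreceptor tyrosine-based activation motif (ITAM), which Src family kinases phosphorylate and which then recruits Syk. Fcgr2b needs no partner chain and carries an immunoreceptor tyrosine-based inhibition motif (ITIM), through which the phosphatase SHIP1 is recruited; it is the classical Fc gamma receptor of B cells, where it dampens signaling from the B cell receptor, and it is also made by myeloid cells. Fcgr3 and Fcgr4 are typical of neutrophils and monocytes, Fcgr1 of monocytes and macrophages. Fcgrt pairs with beta-2 microglobulin and returns IgG from endosomes to the cell surface, and so protects it from breakdown.

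The known signaling motifs of the inhibitory receptor and of the shared chain can be read in their coding sequences. The lines show the ITIM of Fcgr2b and the ITAM of Fcer1g, located by translating the principal coding transcript of each gene in the GENCODE M21 annotation of GRCm38, with the tyrosine codons in capitals.
Fcgr2b ITIM: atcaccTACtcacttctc
Fcer1g ITAM: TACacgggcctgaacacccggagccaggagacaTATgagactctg
The ITIM spans coding bases 949 to 966 of 1023 and ends 18 codons before the stop codon, with 1 tyrosine codon. The ITAM spans coding bases 193 to 237 of 261 and ends 7 codons before the stop codon, with a tyrosine codon at its start and another further on. The pattern used to find the ITIM also matched once in each of Fcer1g (coding bases 121 to 138), Fcgr4 and Fcgrt and at 2 places in Fcgr1, so a match alone is a description and not a site.

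On GRCm38, 4 of the genes lie within 276 kb of chromosome 1. Fcgr2b (ENSMUSG00000026656) runs from 170958617 to 170976547 on the minus strand, Fcgr4 (ENSMUSG00000059089) from 171018920 to 171029761 on the plus strand, Fcgr3 (ENSMUSG00000059498) from 171051174 to 171064935 on the minus strand, and Fcer1g (ENSMUSG00000058715) from 171229572 to 171234365 on the minus strand. Fcgr1 (ENSMUSG00000015947) lies on chromosome 3 from 96282909 to 96293969 and Fcgrt (ENSMUSG00000003420) on chromosome 7 from 45092990 to 45103851, both on the minus strand. All 6 are annotated as protein coding. Of 4 annotated genes that overlap a member, Mir6546, Gm26110 and Gm45669 were listed at 0 FPKM in every library, and Gm38204, antisense to Fcgr2b over 3175 bases, reached 0.27 FPKM at most. Fcgr2b and Fcgr3 are close paralogs: their coding sequences share an identical run of 129 bases, and 22.0% of all 50-base windows of Fcgr3 and 17.0% of those of Fcgr2b occur exactly in the other. No other pair of members shared a 50-base window. How fragments from the shared stretch were assigned is not given in the sources used here, so the split between Fcgr2b and Fcgr3 is uncertain to that extent.

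Values are FPKM (fragments per kilobase of transcript, scaled to sequencing depth), read as such from the deposited numbers, and can be compared between genes because they are scaled to length. For pre-pro-B cells they summed to 798323 and 774881 with the WT genotype and to 834047 and 694578 with Lf-/-. For pro-B cells the sums were 834693 with the WT genotype and 735286 and 732468 with Lf-/-. The spacing of low values put the depth of the WT pre-pro-B pair at about 11200000 and 12300000 fragments, of the WT pro-B library at 14300000, and of the Lf-/- pro-B pair at 11200000 and 15700000. Replicate 1 of Lf-/- pre-pro-B was at 11000000, and no depth could be read for replicate 2. That library also stood apart in breadth, with 12172 genes above 0 FPKM against 19477 to 20250 in the other 6.

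Ltf, the gene of lactoferrin, checked the genotype labels. It was at 2143 and 2731 FPKM in WT pre-pro-B, 2650 FPKM in WT pro-B, 88.2 and 149 FPKM in Lf-/- pre-pro-B, and 168 and 96.0 FPKM in Lf-/- pro-B. The highest Lf-/- value was thus under the lowest WT value, though none was at 0. Over both stages Lf-/- minus WT was -4.38 on the log2(FPKM + 1) scale (SE 0.33, limma adjusted p = 0.00206, lower in 4 of 4 Lf-/- libraries), a call kept in 12 of 14 alternatives and lost with no filter and without WT pro-B replicate 1, where the adjusted p-values reached 0.127. In pre-pro-B cells alone the adjusted p was 0.429 (limma).

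The cell type labels were checked next, and marker genes of another lineage made up much of each library. All 18 genes of a neutrophil list (S100a8 the most abundant) were above 0 in every library, and together they took a large share of the FPKM sum. For pre-pro-B cells the share was 38.0% and 37.7% with the WT genotype against 37.1% and 24.2% with Lf-/-, and for pro-B cells 52.0% with the WT genotype against 34.1% and 38.7% with Lf-/-. The 16 genes of a B lineage list, led by Cd79a, summed to 544 and 480 FPKM in WT pre-pro-B, 201 FPKM in WT pro-B, 2941 and 2244 FPKM in Lf-/- pre-pro-B, and 2562 and 1456 FPKM in Lf-/- pro-B. That was under 1% of each library, and all 4 Lf-/- sums exceeded all 3 WT sums. The libraries are named by their labels below, and in such bulk samples fewer cells of a type and less RNA per cell cannot be told apart.

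The shared chain was by far the most abundant of the 6 genes. Fcer1g held between 79.0% and 94.2% of their summed FPKM, and in all 7 libraries it was followed by Fcgr3. Fcgr4 and Fcgr2b came next and changed places: Fcgr2b was above Fcgr4 in replicate 1 of each pre-pro-B group and below it in the other 5 libraries. Fcgrt followed and Fcgr1 came last except in Lf-/- pre-pro-B replicate 2, where Fcgr1 was above Fcgrt. Over the 7 libraries the ranges of Fcgr4, Fcgr2b, Fcgrt and Fcgr1 overlapped pairwise, while that of Fcgr3 lay above them and that of Fcer1g above Fcgr3.

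**Figure D1:**
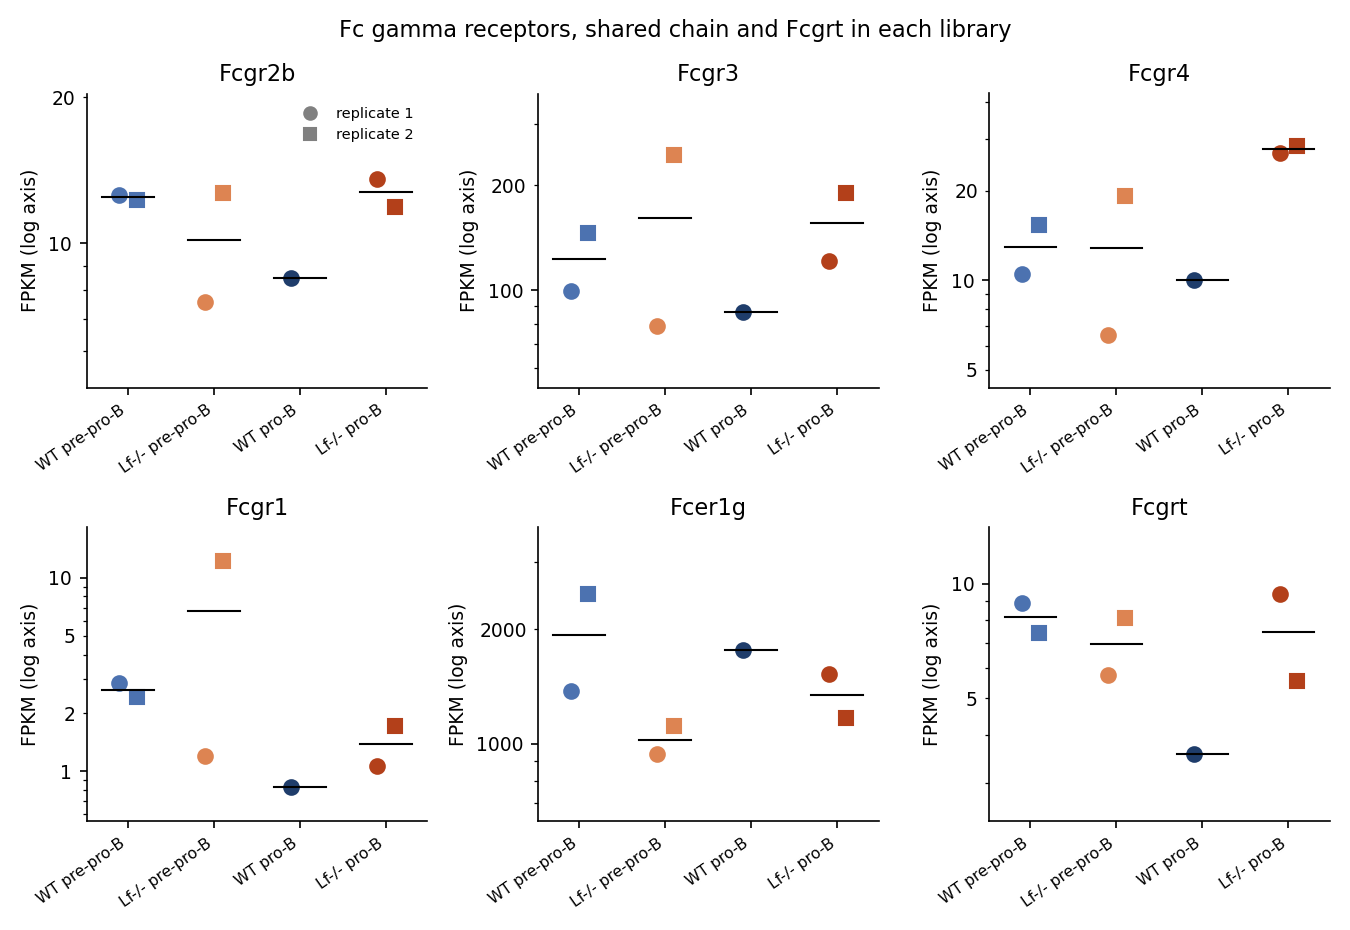
Level of each gene in FPKM on a log axis, with its own range in each panel. Points are libraries (circle, replicate 1; square, replicate 2), lines are group means, and WT pro-B has 1 library. Fcgr4 stands out in Lf-/- pro-B at 26.9 and 28.4 FPKM, Fcgr1 in Lf-/- pre-pro-B replicate 2 at 12.2 FPKM, and Fcer1g is lower in each Lf-/- library than in the WT libraries of its stage.

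Fcgr2b, the inhibitory receptor, was at 12.6 and 12.3 FPKM in WT pre-pro-B, 7.57 and 12.7 FPKM in Lf-/- pre-pro-B, 8.47 FPKM in WT pro-B, and 13.6 and 11.9 FPKM in Lf-/- pro-B. The 2 lowest libraries were Lf-/- pre-pro-B replicate 1 and WT pro-B, and the genotypes overlapped in pre-pro-B cells, with group means of 12.4 ± 0.195 FPKM in WT and 10.1 ± 3.65 FPKM in Lf-/- (SD, n = 2 each). The whole range over 7 libraries was 1.79-fold, the narrowest of the 6 genes. On the log2(FPKM + 1) scale, which understates differences of low genes, Lf-/- minus WT was -0.31 in pre-pro-B cells (SE 0.46, adjusted p = 0.945, limma with Benjamini-Hochberg adjustment over all genes). The same value was 0.03 over both stages with stage in the model (SE 0.33, limma adjusted p = 0.978), and it turned negative with median-ratio scaling, quantile normalization and rescaling outside the neutrophil list. In pro-B cells the difference was 0.53, without a replicate of WT, and it was -0.06 with median-ratio scaling and -0.08 with quantile normalization.

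The inhibitory receptor and the B lineage genes were ordered differently over the libraries. Fcgr2b as a percentage of the summed B lineage FPKM was, for pre-pro-B cells, 2.31 and 2.56 with the WT genotype against 0.26 and 0.57 with Lf-/-, and for pro-B cells 4.21 with the WT genotype against 0.53 and 0.82 with Lf-/-. The library with the highest B lineage sum, Lf-/- pre-pro-B replicate 1, had the lowest Fcgr2b. Pearson r was taken on the log2(FPKM + 1) scale over the 7 libraries, which share their composition and the scaling to a library total. For Fcgr2b it was 0.11 with Cd79a, 0.66 with Fcgr3, 0.27 with Fcer1g and -0.61 with the neutrophil gene S100a8, given here as a description. It was 0.94 with the complement receptor chain Itgb2, 0.77 with Fcgr4 and 0.61 with the myeloid adaptor Tyrobp. S100a8 thus does not stand for the myeloid genes as a group. The value with Fcgr3 carries the uncertain split of fragments between these paralogs. In which cells Fcgr2b was transcribed was not tested.

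**Figure D2:**
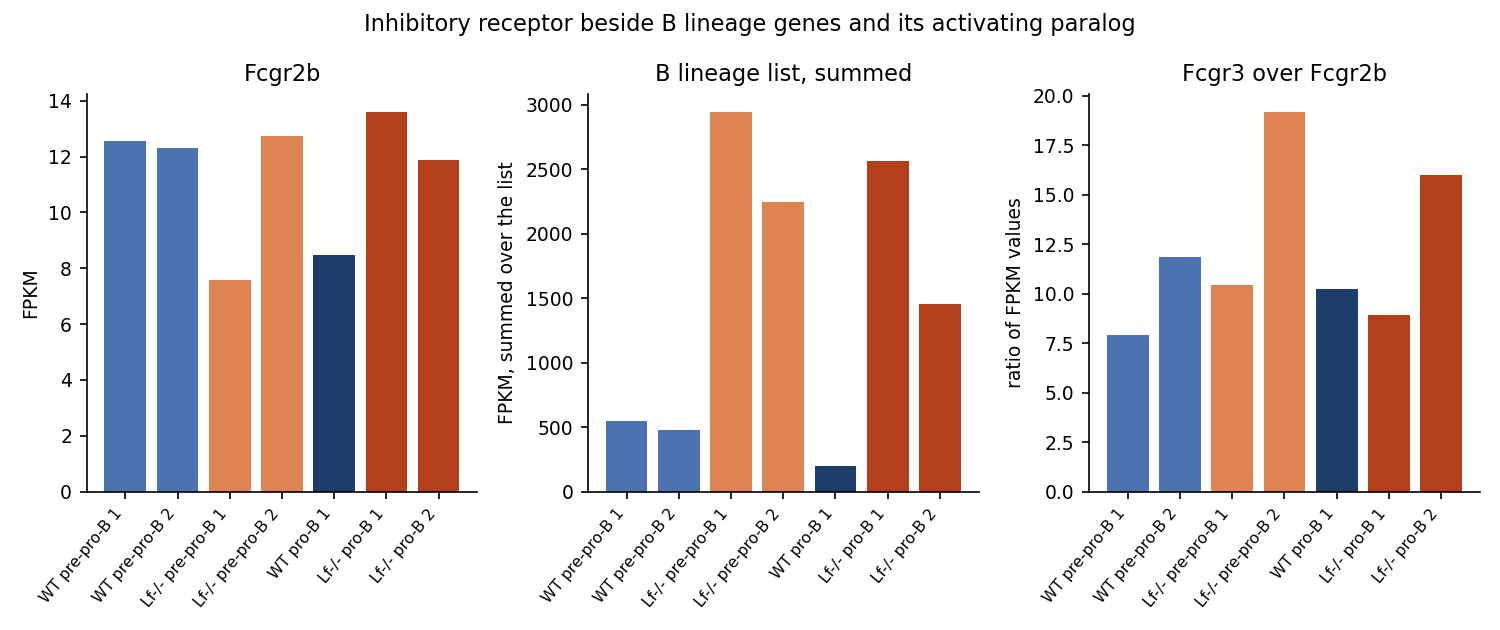
Bars are single libraries: Fcgr2b in FPKM (left), the summed FPKM of the 16 B lineage genes (middle), and the ratio of Fcgr3 to Fcgr2b (right). Fcgr2b lies between 7.57 and 13.6 FPKM while the B lineage sum lies between 201 and 544 FPKM in WT and between 1456 and 2941 FPKM in Lf-/- libraries.

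Fcgr3, the low-affinity activating receptor and the paralog of Fcgr2b, was at 99.7 and 145 FPKM in WT pre-pro-B, 79.0 and 244 FPKM in Lf-/- pre-pro-B, 86.7 FPKM in WT pro-B, and 121 and 190 FPKM in Lf-/- pro-B. Both the lowest and the highest of the 7 values came from Lf-/- pre-pro-B cells, so the genotypes overlapped fully at that stage, while both Lf-/- pro-B libraries were above the WT one. Lf-/- minus WT was 0.20 in pre-pro-B cells (SE 0.64, limma adjusted p = 0.967), and -0.60 without Lf-/- pre-pro-B replicate 2 and -0.07 without WT pre-pro-B replicate 1. In pro-B cells it was 0.80, and 0.16 with median-ratio scaling, 1.12 without Lf-/- pro-B replicate 1 and 0.48 without replicate 2.

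Fcgr4, the mouse activating receptor of neutrophils and monocytes, was the member with the widest gap between the genotypes in pro-B cells in the values as deposited, while with median-ratio scaling Fcer1g had a wider one (-1.05 against 0.77). It was at 10.5 and 15.3 FPKM in WT pre-pro-B, 6.53 and 19.2 FPKM in Lf-/- pre-pro-B, 10.0 FPKM in WT pro-B, and 26.9 and 28.4 FPKM in Lf-/- pro-B. Both Lf-/- pro-B libraries were above every other library, and in pre-pro-B cells the WT values lay between the Lf-/- values. The share of all genes that were highest in the Lf-/- pro-B pair was not counted. In pro-B cells 87.0% of all genes were higher in Lf-/-. Among the 18 neutrophil genes, 4 named after their values were seen were likewise highest in the Lf-/- pro-B pair. Mmp8 was at 344 and 154 FPKM there against at most 121 FPKM elsewhere, Mmp9 at 210 and 89.7 against 78.2 FPKM, Retnlg at 10205 and 3914 against 2680 FPKM, and Cxcr2 at 47.9 and 30.8 against 23.8 FPKM. The list as a whole did not have that order. In pro-B cells 11 of its 18 genes were lower in Lf-/-, with a median of -0.64. Of them 5 met the 2-fold rule downward, the knocked-out gene Ltf included. The part of neutrophil genes in the Fcgr4 difference was not tested. Given the Fcgr4 transcript of 1256 bases, its values correspond to about 180 fragments in the WT pro-B library and 378 and 560 in the Lf-/- pro-B libraries. The difference in pro-B cells was 1.38, and Fcgr4 was the 1 member of 6 that met the rule used there without a test, which was a gap of at least 2-fold, or 1 in log2, with the Lf-/- pair either above or below WT. With 1 Lf-/- library left out, Fcgr3 and Fcgrt met it too, each without a different library. That rule took in 1462 of 10793 genes (13.5%), of which 1341 were higher in Lf-/- (12.4% of all) and 121 lower (1.12%). The median difference of all genes was itself 0.48, and it was 0.01 with median-ratio scaling, 0.00091 with quantile normalization and 0.33 with rescaling outside the neutrophil list. The share of higher genes among those meeting the rule went from 91.7% to 52.6%, 55.6% and 83.4% in the same order. With the first 2 of these scalings the Fcgr4 difference was 0.77 and 0.74, short of the rule, and with the last it was 1.18. In a fit of all 7 libraries in which the lone WT pro-B library was assumed to vary like the other groups, limma called 0 genes at an adjusted p of 0.05 in pro-B cells and 467 at an unadjusted p under 0.05, and Fcgr4 had an adjusted p of 0.822 (limma).

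Whether the genotype difference of Fcgr4 was larger in pro-B than in pre-pro-B cells was tested as an interaction. Here too the lone WT pro-B library was assumed to vary like the other groups. In pre-pro-B cells Lf-/- minus WT was -0.15 (SE 0.61, limma adjusted p = 0.973). It was 0.56 without Lf-/- pre-pro-B replicate 1 and 0.10 without WT pre-pro-B replicate 2. The pro-B difference minus the pre-pro-B difference was 1.53 (SE 0.84, limma adjusted p = 0.990), and it was 0.82 without Lf-/- pre-pro-B replicate 1 and 2.24 without replicate 2. None of the 6 members passed: limma called 0 of 10793 genes (0.0%) at an adjusted p of 0.05 and 296 (2.74%) at an unadjusted p under 0.05.

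Fcgr1, the high-affinity receptor, was close to the lower limit of what was kept, at least 1 FPKM in at least 2 libraries. It was at 2.84 and 2.43 FPKM in WT pre-pro-B, 1.21 and 12.2 FPKM in Lf-/- pre-pro-B, 0.83 FPKM in WT pro-B, and 1.07 and 1.71 FPKM in Lf-/- pro-B. One library, Lf-/- pre-pro-B replicate 2, held the high value, and its partner was below both WT libraries. Lf-/- minus WT in pre-pro-B cells was 0.57 (SE 0.88, limma adjusted p = 0.945). It was -0.72 without replicate 2 of the Lf-/- group and 1.86 without replicate 1, where its adjusted p was 0.0174 (limma) in a range of 0.0174 to 0.99996 over 12 alternatives. That call rests on the library with the high value against the WT pair, in a setting in which 3338 genes passed.

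Fcer1g, the shared chain, was the 1 member of 6 that was lower in Lf-/- at both stages without overlap. It was at 1381 and 2479 FPKM in WT pre-pro-B, 940 and 1111 FPKM in Lf-/- pre-pro-B, 1770 FPKM in WT pro-B, and 1529 and 1166 FPKM in Lf-/- pro-B. Within each stage the Lf-/- values lay under the WT values, while across stages the ranges overlapped. In pre-pro-B cells 1723 of 9720 genes (17.7%) lay below WT in this way, and 197 of 10793 genes (1.83%) did so at both stages. Lf-/- minus WT was -0.86 in pre-pro-B cells (SE 0.50, limma adjusted p = 0.941), -0.41 in pro-B cells, and -0.68 over both stages (SE 0.32, limma adjusted p = 0.689, lower in 4 of 4 Lf-/- libraries than in WT of the stage). The sign was negative under all 14 alternatives over both stages, from -1.04 to -0.42, and none passed, with adjusted p-values of 0.287 to 0.951 (limma). In pre-pro-B cells it was -0.43 without WT pre-pro-B replicate 2 and -1.28 without replicate 1. In pro-B cells it went from -1.05 with median-ratio scaling to -0.21 over 9 alternatives, and the first of these met the 2-fold rule. Markers of myeloid cells were also mostly lower in Lf-/- pre-pro-B cells. There 17 of 18 neutrophil genes and 12 of 15 tested monocyte and macrophage genes were lower, while 52.0% of all genes were higher. The 17 include Ltf, the gene knocked out in these mice. The part of these myeloid markers in the Fcer1g difference was not tested.

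A second adaptor was set beside the chain. Tyrobp (DAP12), the other abundant ITAM adaptor of myeloid and NK cells, was at 1575 and 2742 FPKM in WT pre-pro-B, 1152 and 2061 FPKM in Lf-/- pre-pro-B, 2065 FPKM in WT pro-B, and 2366 and 2853 FPKM in Lf-/- pro-B. The ratio of Fcer1g to Tyrobp, a pair chosen after the values were seen and not tested, was, for pre-pro-B cells, 0.88 and 0.90 with the WT genotype against 0.82 and 0.54 with Lf-/-, and for pro-B cells 0.86 with the WT genotype against 0.65 and 0.41 with Lf-/-. The 4 Lf-/- ratios lay under the 3 WT ratios, which were close together.

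**Figure D3:**
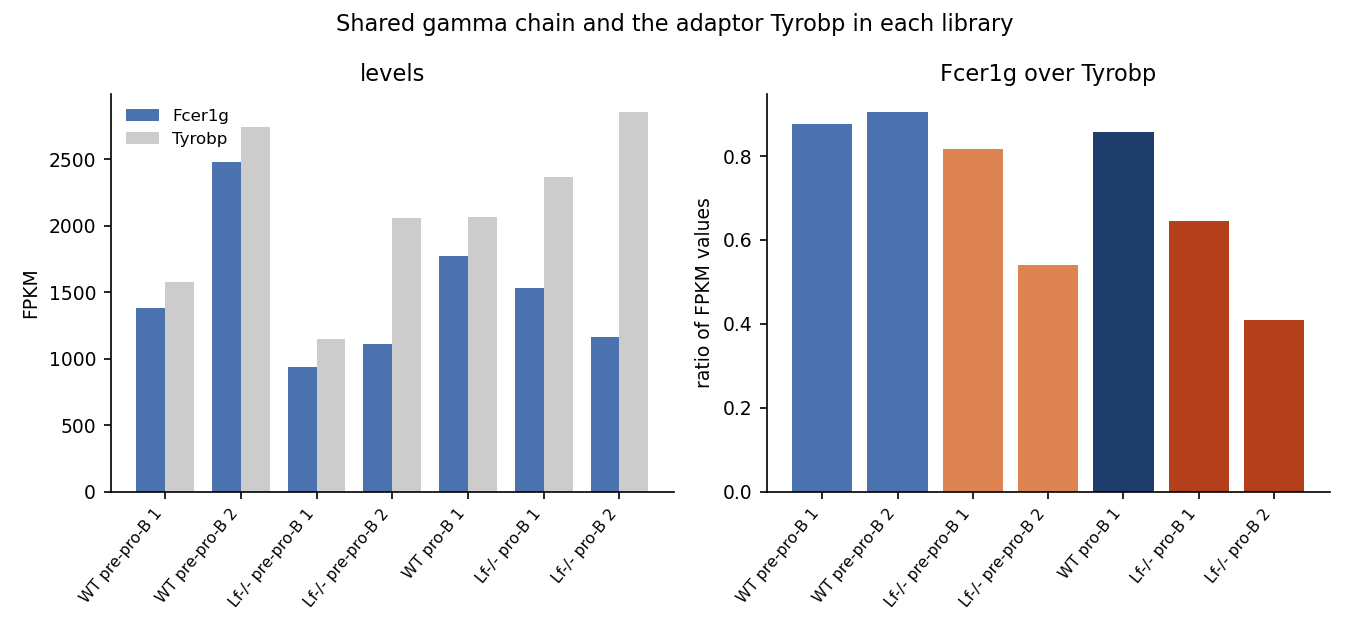
Left: FPKM of Fcer1g and Tyrobp in each library. Right: their ratio, which is 0.86 to 0.90 in the 3 WT libraries and 0.41 to 0.82 in the 4 Lf-/- libraries.

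Fcgrt, the neonatal Fc receptor heavy chain, was at 8.89 and 7.43 FPKM in WT pre-pro-B, 5.75 and 8.14 FPKM in Lf-/- pre-pro-B, 3.57 FPKM in WT pro-B, and 9.38 and 5.54 FPKM in Lf-/- pro-B. WT pro-B was the lowest of the 7, and the other groups overlapped. Lf-/- minus WT was -0.22 in pre-pro-B cells (SE 0.45, limma adjusted p = 0.959) and 0.85 in pro-B cells, the latter being 0.31 and 0.28 with median-ratio scaling and quantile normalization, 0.52 without Lf-/- pro-B replicate 1 and 1.18 without replicate 2. Its partner B2m was between 2296 and 3635 FPKM in the 7 libraries, with the lowest value again in WT pro-B.

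**Figure D4:**
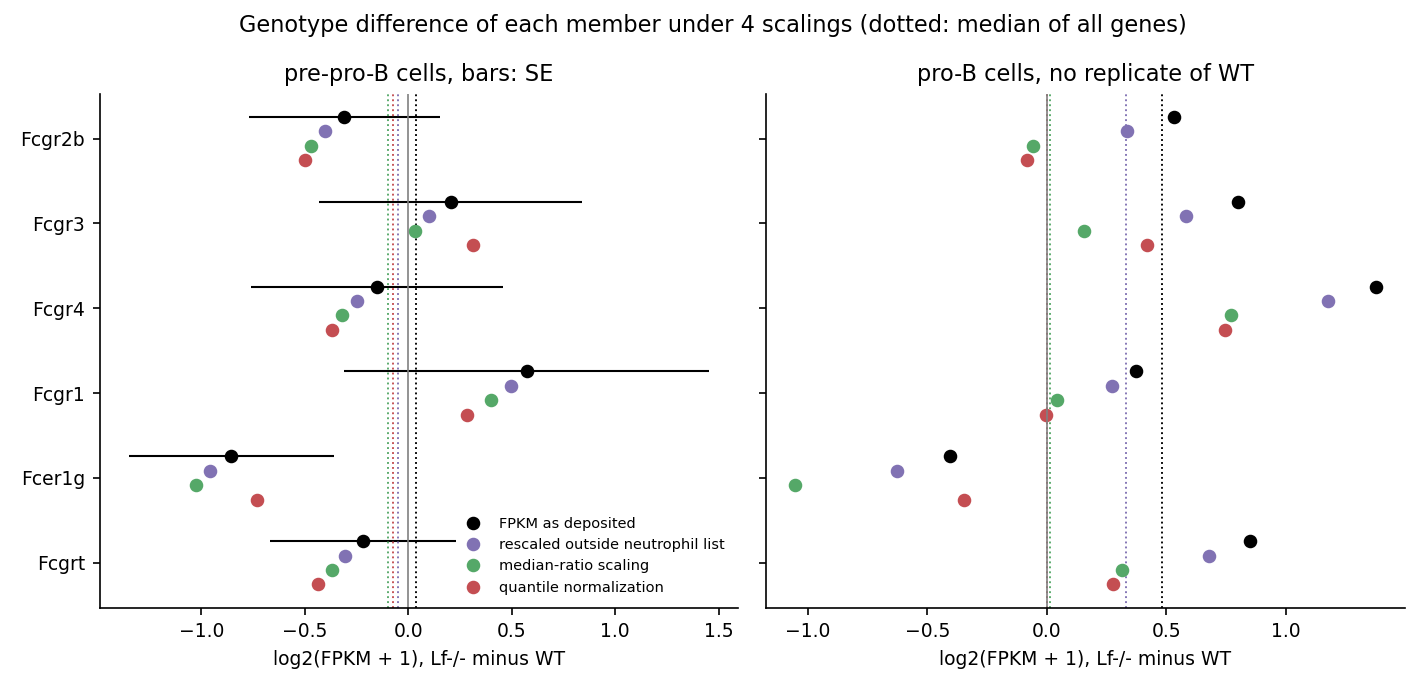
Difference of log2(FPKM + 1), Lf-/- minus WT, for each gene in pre-pro-B (left, bars are the SE of the values as deposited) and pro-B cells (right, 1 WT library, no error). Colors are 4 scalings of the same libraries and dotted lines the median of all genes under each. In pre-pro-B cells the bars of 5 genes cross 0; in pro-B cells Fcgr2b moves from 0.53 to -0.06 and -0.08, Fcgr1 from 0.37 to 0.04 and -0.0038, and Fcer1g is below 0 in every scaling.

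Fcgr3 varied over a wider range than Fcgr2b, 3.09-fold against 1.79-fold, and so did their ratio. Fcgr3 exceeded Fcgr2b by 7.93-fold and 11.8-fold in WT pre-pro-B, 10.4-fold and 19.2-fold in Lf-/- pre-pro-B, 10.2-fold in WT pro-B, and 8.90-fold and 16.0-fold in Lf-/- pro-B. The genotypes overlapped at both stages, and replicate 2 had the higher ratio in each group with a pair. On the log2(FPKM + 1) scale the ratio of Fcgr2b to Fcgr3 differed by -0.51 between Lf-/- and WT in pre-pro-B cells and by -0.27 in pro-B cells, within 1 SD of the replicates (0.55 and 0.58). In pre-pro-B cells it was -0.81 with quantile normalization, beyond 1 SD, and ran from -0.98 without Lf-/- pre-pro-B replicate 1 to -0.046 without replicate 2. In pro-B cells it was -0.68 without Lf-/- pro-B replicate 1 and turned to 0.15 without replicate 2. Against Fcgr4 the order differed: Fcgr2b was 1.20 and 0.80 times Fcgr4 in WT pre-pro-B, 1.16 and 0.66 times in Lf-/- pre-pro-B, 0.84 times in WT pro-B, and 0.50 and 0.42 times in Lf-/- pro-B. The Lf-/- pro-B libraries had the lowest ratios of all 7. Against the shared chain, Fcgr2b was between 0.48% and 1.15% of Fcer1g, with overlapping genotypes in pre-pro-B cells and both Lf-/- pro-B libraries, at 0.89% and 1.02%, above the WT pro-B library at 0.48%.

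By the replicated tests, none of the 6 genes passed. The genotype test in pre-pro-B cells called 0 of 9720 genes (0.0%) at an adjusted p of 0.05 (limma, lowest adjusted p = 0.281) and 284 (2.92%) at an unadjusted p under 0.05, with 0 of 6 members in either count. Over both stages the genotype test called 20 of 10793 genes (0.185%), 19 of them higher in Lf-/-, and 774 (7.17%) at an unadjusted p under 0.05, again with 0 of 6 members. The median genotype difference of all genes over both stages was 0.21, and -0.06, -0.05 and 0.10 with median-ratio scaling, quantile normalization and rescaling outside the neutrophil list. Of the genes called there, 95.0% were higher in Lf-/-, against 71.4%, 80.0% and 87.5% of those called with these scalings. The stage test called 1 gene of 10793 (0.00927%) and 260 (2.41%) at an unadjusted p under 0.05, with 0 of 6 members. Pro-B minus pre-pro-B was -1.11 for Fcgr1 (SE 0.56, limma adjusted p = 0.947) and 0.60 for Fcgr4 (SE 0.46, limma adjusted p = 0.947), and between -0.36 and 0.21 for the other 4. The Fcgr1 value was -0.44 without Lf-/- pre-pro-B replicate 2 and -1.73 without replicate 1, and the Fcgr4 value was 0.096 without Lf-/- pre-pro-B replicate 1 and 1.22 without WT pro-B replicate 1. The study's methods speak of 3 mice in each group and its legends of 2 repeats, and whether each library is a separate animal is not stated. These p-values measure the spread between libraries, which may be technical.

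Among other receptors for immunoglobulins, a pair of genes passed the test over both stages. Of 14 genes in a list of other Fc receptors and Fc receptor-like genes, 7 were tested over both stages. In Lf-/- 7 of 7 were higher against 66.8% of all genes, and 2 of 7, Fcmr and Fcrla, passed against 0.185% of all genes. Fcmr, the IgM receptor of B cells, was at 16.2 and 8.30 FPKM in WT pre-pro-B, 9.73 FPKM in WT pro-B, 77.7 and 190 FPKM in Lf-/- pre-pro-B, and 117 and 109 FPKM in Lf-/- pro-B. The 4 Lf-/- values exceeded the 3 WT values (log2 difference 3.33, SE 0.39, limma adjusted p = 0.0210). Fcrla, an Fc receptor-like gene of B cells that neighbours the receptor cluster on chromosome 1, was at 24.2 and 11.1 FPKM in WT pre-pro-B, 7.39 FPKM in WT pro-B, 90.1 and 98.5 FPKM in Lf-/- pre-pro-B, and 65.1 and 38.9 FPKM in Lf-/- pro-B, likewise without overlap (2.51, SE 0.35, limma adjusted p = 0.0399). Both stayed above 2 on the log2 scale under 14 alternatives, where the Fcmr call was kept in 8 and the Fcrla call in 4. The Fcmr call was lost with no filter and without any of the 3 WT or either of the Lf-/- pro-B libraries, with adjusted p-values over the alternatives of 0.00192 to 0.441 (limma). The Fcrla call was lost under these too, without Lf-/- pre-pro-B replicate 1, with the pseudocount of 0.1, and with median-ratio scaling or quantile normalization (0.00667 to 0.614, limma). The list's median difference over both stages was 1.26 against 0.21 for all genes, and in pro-B cells 2.31 against 0.48. The summed B lineage levels given above had the same order by genotype, and their part in the Fcmr and Fcrla differences was not tested.

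Genes near the receptor cluster were measured for comparison. Of 16 neighbours of the cluster on chromosome 1, 11 were tested over both stages, and Fcrla was the 1 that passed, where 0.185% of all genes passed. Sdhc, a subunit of respiratory complex II, was at 23.3 to 42.8 FPKM, with an adjusted p of 0.727 (limma). The neighbours' median was 0.37 against 0.21 for all genes.

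Adaptors, and receptors most of which use the gamma chain or a like adaptor, were measured beside it. Of 14 listed, 13 were found in the files and 10 were tested over both stages. Of these 7 were higher in Lf-/-, 3 lower, and 0 passed, where 66.8% of all genes were higher. In pro-B cells 10 of 10 were higher and 7 met the 2-fold rule, with a median of 1.25 against 0.48; of all genes 87.0% were higher and 12.4% met the rule upward. Clec4d, a C-type lectin of myeloid cells that signals through the gamma chain, was at 5.83 and 7.92 FPKM in WT pre-pro-B, 4.89 FPKM in WT pro-B, 2.94 and 17.2 FPKM in Lf-/- pre-pro-B, and 28.7 and 26.5 FPKM in Lf-/- pro-B. Like Fcgr4, it was highest in the Lf-/- pro-B pair and lay on both sides of WT in pre-pro-B cells. How many of all genes had that order was not counted.

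Downstream of the ITAM, 22 of 27 listed genes of activating Fc receptor signaling were tested over both stages. Of these 21 were higher in Lf-/- and 1 lower, 3 had an unadjusted p under 0.05 and 0 passed in limma, with a median of 0.53 against 0.21. Of all genes 66.8% were higher and 7.17% had an unadjusted p under 0.05, which is the background for the inhibitory list too. The most abundant, the GTPase Rac2, was at 488 to 771 FPKM. On the inhibitory side, 22 of 24 entries for 23 listed inhibitory enzymes and receptors were tested (Lilrb4a has 2 entries); 17 were higher in Lf-/-, 5 lower, 6 had an unadjusted p under 0.05 and 0 passed, with a median of 0.45. Ptpn6, the phosphatase SHP-1, was at 82.7 and 84.0 FPKM in WT pre-pro-B, 50.1 FPKM in WT pro-B, 82.0 and 210 FPKM in Lf-/- pre-pro-B, and 120 and 99.8 FPKM in Lf-/- pro-B. Inpp5d, which encodes SHIP1 and is named here after its values were seen because it is the main effector of Fcgr2b, was at 3.54 and 4.16 FPKM in WT pre-pro-B, 5.16 FPKM in WT pro-B, 10.6 and 11.4 FPKM in Lf-/- pre-pro-B, and 9.20 and 4.71 FPKM in Lf-/- pro-B. Both Lf-/- pre-pro-B values were above both WT ones, and in pro-B cells the WT value lay between the Lf-/- values (over both stages 0.91, SE 0.36, limma adjusted p = 0.655).

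Complement receptors, some of which clear the same immune complexes, gave 5 tested of 9 entries for 8 listed genes over both stages (Itgam has 2). Of these 5 were higher in Lf-/- and 0 passed, where 66.8% of all genes were higher. Itgb2, the beta chain of complement receptors 3 and 4, was at 59.6 to 125 FPKM. C5ar1, the receptor of the anaphylatoxin C5a, was at 48.7 and 6.74 FPKM in WT pre-pro-B, 21.7 and 13.4 FPKM in Lf-/- pre-pro-B, 7.46 FPKM in WT pro-B, and 90.3 and 55.4 FPKM in Lf-/- pro-B. The Lf-/- pro-B libraries were again the highest, as for Fcgr4 and Clec4d, without a count of all genes for which this held. The WT pre-pro-B pair lay far apart.

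The levels of cell type markers are given beside these values, and their part in any difference was not tested. All 18 neutrophil genes were tested, and over both stages 6 were higher in Lf-/-, 12 lower, and Ltf alone passed, with a median of -0.44. Ltf is the gene knocked out, and it counts among the lower genes in each genotype comparison of this list. Of all genes 66.8% were higher and 0.185% passed. In pre-pro-B cells 1 of the 18 was higher and 17 lower, with a median of -0.32. Of 15 tested monocyte and macrophage genes 3 were higher and 12 lower at that stage, with a median of -0.40. Of all genes 52.0% were higher there, with a median of 0.03. In pro-B cells 9 of the 18 met the 2-fold rule, 4 higher (Mmp8, Mmp9, Retnlg and Cxcr2) and 5 lower (Ltf, Mpo, Elane, Prtn3 and Ctsg), against 12.4% of all genes higher and 1.12% lower by that rule. Of 16 monocyte and macrophage genes, led by Ly6c2, the sum was 1247 and 2089 FPKM in WT pre-pro-B, 1144 FPKM in WT pro-B, 795 and 1103 FPKM in Lf-/- pre-pro-B, and 700 and 921 FPKM in Lf-/- pro-B. All 4 Lf-/- sums were under all 3 WT sums, an order that rests on Ly6c2. Without it the sums were 291 and 277 FPKM in WT pre-pro-B, 129 FPKM in WT pro-B, 163 and 271 FPKM in Lf-/- pre-pro-B, and 137 and 165 FPKM in Lf-/- pro-B, with WT pro-B the lowest. Over both stages 15 genes were tested, 6 higher, 9 lower and 0 passing, and in pro-B cells 9 were higher and 6 lower, with a median of 0.33. Cd5l was at 0 in Lf-/- pre-pro-B replicate 2. Of the B lineage list, 15 of 15 tested genes were higher in Lf-/- over both stages against 66.8% of all genes, with a median of 1.87 against 0.21. The 4 that passed, where 0.185% of all genes did, included Cd79a, Cd79b and Ms4a1. Of the calls of these 3, 6, 8 and 8 in this order were kept under 14 alternatives, with log2 differences above 2 in all of them, and all were lost with no filter and without WT pro-B replicate 1, WT pre-pro-B replicate 2 or either Lf-/- pro-B library. Their adjusted p-values reached 0.481, 0.415 and 0.441 (limma). With median-ratio scaling the calls of Cd79a and Cd79b were lost too, and with the pseudocount of 0.1 that of Cd79a. Rag1 was at 0 in WT pro-B, and Bank1 and Rag2 in Lf-/- pre-pro-B replicate 2.

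Mast cells and basophils also use the gamma chain, in their IgE receptor. The 10 genes of their list, led by the basophil protease Prss34, summed to 624 and 498 FPKM in WT pre-pro-B, 523 FPKM in WT pro-B, 274 and 215 FPKM in Lf-/- pre-pro-B, and 3115 and 2272 FPKM in Lf-/- pro-B. The order by genotype was thus opposite at the 2 stages. Fcer1a, the alpha chain of the IgE receptor, was at 22.2 and 17.0 FPKM in WT pre-pro-B, 10.6 and 17.3 FPKM in Lf-/- pre-pro-B, 14.6 FPKM in WT pro-B, and 73.0 and 79.2 FPKM in Lf-/- pro-B. Its 2 highest libraries were those of Fcgr4, again without a count of all genes for which this held. The mast cell protease Mcpt4 was at 0 in all 7 libraries, and Tpsb2 and Cma1 in 6.

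By pattern over the 7 libraries, the 10792 other genes at 1 FPKM or more in at least 2 libraries were ranked by Pearson correlation of log2(FPKM + 1) with each member, as a description without a test. Libraries share their composition and scaling, and each r has 7 points. Nearest to Fcgr2b were Ctsd, the lysosomal protease cathepsin D (r = 0.997), Prim1 (0.984) and Srsf2 (0.983); nearest to Fcgr3 were Abracl (0.987), Magohb (0.987) and Gm8172 (0.984). Nearest to Fcgr4 were Prr13 (0.985), Clec4d (0.984) and Eng (0.979), so that a receptor partner of the gamma chain, listed above, had the second nearest pattern. Nearest to Fcgr1 were Arfgap3 (0.993), Scly (0.989) and AC160637.1 (0.987), all with their highest value in Lf-/- pre-pro-B replicate 2. Fcer1g was nearest to Lyz2, the lysozyme of myeloid cells (0.951), Gm14111 (0.939) and Ifitm3 (0.938), and Fcgrt to Zfp384 (0.994) and Cops2 (0.972). Among the members, r was 0.77 between Fcgr2b and Fcgr4, 0.75 between Fcgr3 and Fcgr4, and -0.06 between Fcer1g and Fcgr3.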

How the data were processed

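The authors sorted the cells by flow cytometry, sequenced RNA on a NovaSeq instrument and deposited 1 table per library with 1 FPKM value per gene. The submitters' processing notes name TopHat, Cufflinks, HTSeq, DESeq and GRCm38, without versions or roles. Genes were matched by identifier to GENCODE M21 (52403 of 52550). Values were analysed as log2(FPKM + 1) in limma 3.58.1 under R 4.3.3 (trended variance prior, two-sided), with Benjamini-Hochberg adjustment over all genes kept (at least 1 FPKM in at least 2 libraries of the fit). The fits were genotype in pre-pro-B cells, genotype with stage, and 4 group means with their interaction; in pro-B cells differences are described by a 2-fold rule, with a test only in the alternative fit of 7 libraries in 4 groups. The fits were tested on simulated data. Named genes were the 6 members, Ltf, genes among the 3 most abundant of each list and among those passing, and genes among the 3 nearest patterns per member; others are named after their values were seen. The members and lists were chosen with earlier results of these data known. Alternatives were a pseudocount of 0.1, median-ratio scaling, quantile normalization, rescaling to equal sums outside the neutrophil list, no filter, 1 FPKM in every library, a replicate block, all 7 libraries in 1 fit, and each library left out in turn. Lists of NK and T cell, platelet, eosinophil, plasmacytoid dendritic cell, erythroid and sort gate genes were also measured. Sequences came from GENCODE transcripts. Python 3.11.15, pandas 2.3.3, numpy 2.4.6 and matplotlib 3.10.9 were used. Intervals from counting error were not calculated.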

Additional observations from a re-analysis of the deposited data

Results flagged for a closer look

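For 4 of the 55 genes to which the rule for named genes applied, all Lf-/- values lay on one side of WT in pre-pro-B cells and on the other side in pro-B cells. The same held for 18 of 173 genes on the lists and for 1265 of all 10793 genes (11.7%), so the pattern is common here. It was one-sided, lower and then higher in Lf-/- for all 4, all 18 and 1222 of the 1265. Over all genes the log2 interaction had a median of 0.45 as deposited and 0.07 with median-ratio scaling. For the 4 named genes the interaction of genotype and stage did not pass an adjusted p of 0.05 (limma). Prss34, a basophil protease, was at 346 and 248 FPKM in WT pre-pro-B, 158 and 120 FPKM in Lf-/- pre-pro-B, 312 FPKM in WT pro-B, and 2095 and 1536 FPKM in Lf-/- pro-B, with an interaction of 3.60 on the log2 scale (adjusted p = 0.990). Mcpt8, likewise a basophil protease, was at 211 and 193 FPKM, 85.9 and 56.7 FPKM, 164 FPKM, and 855 and 580 FPKM in the same groups, with 3.61 (adjusted p = 0.990). Klk1 was at 12.4 and 14.9 FPKM, 4.81 and 0 FPKM, 30.7 FPKM, and 54.8 and 110 FPKM, with 3.91 (adjusted p = 0.990). Hcst, the adaptor DAP10, was at 98.2 and 107 FPKM, 66.7 and 39.9 FPKM, 88.9 FPKM, and 113 and 118 FPKM, with 1.34 (adjusted p = 0.990). The single WT pro-B library enters each of these values.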

How the results depend on the processing

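Genotype over both stages gave 20 genes, and 9 with a pseudocount of 0.1, 7 with median-ratio scaling, 10 with quantile normalization, 0 with no filter and 63 with at least 1 FPKM in every library, where fewer genes were tested. The stage test gave 1 gene, and 0 with the pseudocount, quantile normalization or no filter and 6 with 1 FPKM in every library. The interaction gave 0 genes, and 122 with no filter. In pro-B cells 1462 genes met the 2-fold rule, and 2853 with the pseudocount, 822 with median-ratio scaling, 835 with quantile normalization, 943 with 1 FPKM in every library. By another criterion, an adjusted p of 0.05 in the limma fit of 4 groups, 0 genes passed there and 467 had an unadjusted p under 0.05. Leaving out each library in turn gave 0 to 3338 genes for genotype in pre-pro-B cells, 0 to 123 over both stages, 0 to 36 for stage and 0 to 561 for the interaction; a group left with 1 library was assumed to vary like the others. The cause was not tested.

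On the log2 scale, the genotype difference over both stages turned negative for Fcgr2b with median-ratio scaling (-0.30), quantile normalization (-0.33) and rescaling outside the neutrophil list (-0.11), and for Fcgrt with the first of these (-0.10) and the second (-0.15). The stage difference of Fcgr3 turned positive with quantile normalization (0.044) and rescaling (0.10). Leaving out each library in turn, the pre-pro-B difference ran from -0.65 to 0.031 for Fcgr2b, -0.60 to 1.01 for Fcgr3, -0.86 to 0.56 for Fcgr4, -0.72 to 1.86 for Fcgr1 and -0.44 to 0.00031 for Fcgrt. Over both stages it ran from -0.31 to 0.28 for Fcgr2b, -0.15 to 0.97 for Fcgr4, -0.17 to 1.12 for Fcgr1 and -0.22 to 0.43 for Fcgrt. The stage difference ran from -0.25 to 0.34 for Fcgr2b, -0.58 to 0.23 for Fcgr3 and -0.63 to 0.070 for Fcgrt. The cause was not tested.

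Replicate numbers are not known to pair libraries. With replicate number as a block, 65 genes passed for genotype in pre-pro-B cells and 8 for stage, Fcgr2b over both stages was -0.022 and the stage difference of Fcgr3 was 0.017.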

Other observations

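Markers of further cell types were summed in each library, in the order WT pre-pro-B, WT pro-B, Lf-/- pre-pro-B and Lf-/- pro-B. Over both stages 66.8% of all genes were higher in Lf-/-, which is the background for the counts of these lists. The 12 NK and T cell genes, led by Nkg7, summed to 988 and 1299, 908, 553 and 429, and 447 and 1016 FPKM. Nkg7 made up most of each sum, and without it the sums were 23.4 and 15.7, 23.4, 8.47 and 105, and 89.8 and 96.5 FPKM. Over both stages 8 of 9 tested genes were higher in Lf-/-, 1 was lower and 0 passed, and 7 of the 12, Ncr1 and Prf1 included, were at 0 in Lf-/- pre-pro-B replicate 2. The 7 eosinophil genes, led by Prg2, summed to 4416 and 4120, 2612, 1115 and 3138, and 619 and 2831 FPKM, and 6 of 6 tested were lower in Lf-/- over both stages with 0 passing. The 7 platelet and megakaryocyte genes summed to 101 and 108, 52.4, 51.4 and 20.5, and 28.1 and 35.8 FPKM, and 6 of them, Pf4 included, were at 0 in Lf-/- pre-pro-B replicate 2. Over both stages 4 of 5 tested platelet genes were lower in Lf-/- and 0 passed.

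The 7 plasmacytoid dendritic cell genes, led by Cox6a2, summed to 61.3 and 78.5, 91.8, 67.2 and 434, and 235 and 391 FPKM, with 5 of 6 tested higher in Lf-/- over both stages and 0 passing. The 9 erythroid genes, led by Hba-a1, made up 7.06% and 1.96%, 4.99%, 3.58% and 15.3%, and 10.3% and 5.26% of the FPKM sum. Of these 7 of 9 were higher in Lf-/- over both stages, against 66.8% of all genes, and 0 passed. Of the 6 sort gate genes, Ighm was the most abundant, at 4830 and 746, 385, 1780 and 1574, and 960 and 724 FPKM, although the pro-B definition leaves out IgM on the surface.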
